A study of Homo sapiens with 12 samples.

Results

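KKU-213A cells grown in acid medium with added lactate were compared with KKU-213A cells grown in acid medium without it, gene by gene, over the 1304 genes that the authors' deposited tables list for both cultures. KKU-213A is an established human cholangiocarcinoma line of mixed papillary and non-papillary type, a cancer of the bile duct epithelium. The deposited tables name 5308 genes in all. Each table lists the genes that the authors found to differ from control, at a posterior probability of equal expression under 0.05. The lactic acidosis table names 4279 genes and 1721 stand in the table for acidosis. The 2975 genes listed for lactic acidosis and not for acidosis, and the 417 listed for acidosis and not for lactic acidosis, were not analysed here. Every gene compared therefore differed from control in both media, and a gene that acid alone left near its control level is outside the comparison.

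The lactic acidosis group held 3 libraries from cells kept at pH 6.7 in medium that received L-lactate and HEPES, a buffer, each to 25 mM, reached by raising the share of the lactic acidosis medium at each passage. The acidosis group held 3 libraries from cells kept with 25 mM HEPES at pH 6.5. Both grew in low-glucose medium with serum for at least 5 passages before use. The groups differ in lactate, in pH and, as the protocol describes it, in the way the cells were brought into the medium, and these cannot be told apart. The 3 control libraries came from cells in unmodified low-glucose medium, and the 3 lactosis libraries from cells with 25 mM L-lactate at pH 7.4, which are set beside the comparison where a table lists the gene. The labels do not say that replicates were grown separately, so p-values measure only the spread between these libraries, which may be technical.

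Lactic acid is a lactate ion and a proton, and monocarboxylate transporters carry the pair across the cell membrane together. Cells of glycolytic tumours release both, so lactate and acidity usually rise in the same places, and media that hold only lactate or only acid are used to separate their effects. Genes that respond to growth factors through the MAP kinase cascade, to sterol supply through SREBP2, to amino acid supply through ATF4 and to glucose phosphates through MondoA are well-studied readouts of how a cell meets such a medium.

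Lactic acidosis and acidosis cells differed in a large share of the genes they had in common. Of the 1304 genes, 505 (38.7%) were higher in lactic acidosis and 131 (10.0%) were lower at a Benjamini-Hochberg adjusted p under 0.05 in limma, a linear model fitted across all 1304 genes on log2(value + 1). A value here is the authors' expression level of a gene in a library, corrected for gene length and library size in a unit that could be TPM or FPKM. A log2 difference is lactic acidosis minus acidosis on that log2(value + 1) scale, which understates the change of genes with low values. Differences ran from -2.25 to 3.66, with a median of 0.155. By at least 0.5, 165 genes (12.7%) were higher and 66 (5.06%) lower, and 43 genes (3.3%) were higher and 18 (1.38%) lower by at least 1. Without any model, the 3 lactic acidosis values lay above all 3 acidosis values in 606 genes (46.5%) and below all 3 in 153 (11.7%).

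**Figure D1:**
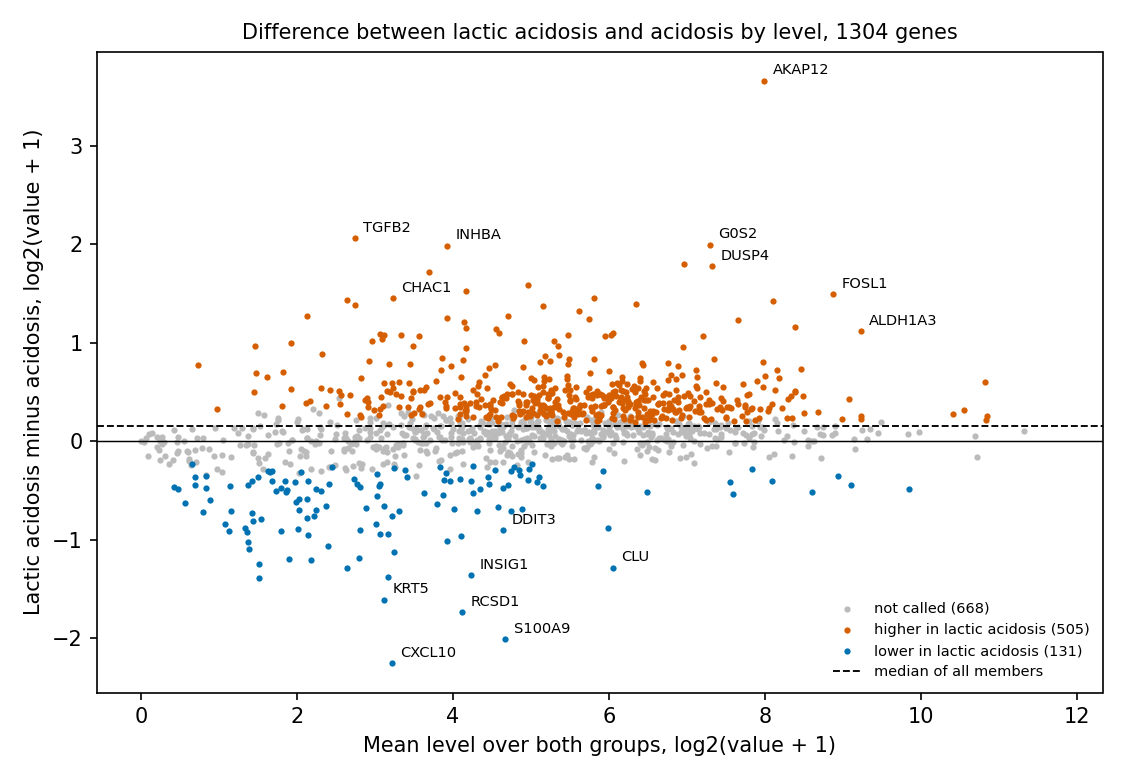
Each point is 1 of the 1304 genes, with its mean level over both groups on the horizontal axis and the log2 difference, lactic acidosis minus acidosis, on the vertical axis. Orange points are the 505 genes called higher, blue points the 131 called lower and grey points the 668 not called, the dashed line is the median of 0.155, and AKAP12 at 3.66 and CXCL10 at -2.25 are the ends of the range.

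The balance of higher and lower genes depended on how libraries were scaled. The deposited values set lactic acidosis over acidosis 0.0999 higher on the log2 scale than the authors' own size factors do. On the scale of those size factors 608 genes were called (46.6%), 404 higher (31.0%) and 204 lower (15.6%), which lowers the higher share of the calls from 79.4% to 66.45%. When each library was centred on its median over the 1304 genes, 234 were higher (17.9%) and 405 lower (31.1%), a higher share of 36.6%, and all differences shifted by -0.2366. All 131 genes lower on the deposited scale and 234 of the 505 higher ones had the same call on the 3 scales. Gene lists are therefore described below by their counts on more than 1 scale where these differ, and several also by the distance of their median from the median of all 1304 genes.

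Genes listed above control in both acid media were far more often higher than lower with lactate added. The authors' deposited tables list 806 genes as higher than control in both media, and 466 of these were higher in lactic acidosis than in acidosis against 2 that were lower, HSPE1 and TXNIP. They list 478 as lower than control in both, of which 124 were lower still in lactic acidosis and 24 were higher. After centring, the first set split into 212 higher and 81 lower and the second into 7 higher and 319 lower. Both comparisons with control use the same 3 control libraries, so the shared sides of control are no independent observation. A further 15 genes were listed higher in lactic acidosis and lower in acidosis, and 5 the other way, and groups on opposite sides of control differ by construction.

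**Figure D2:**
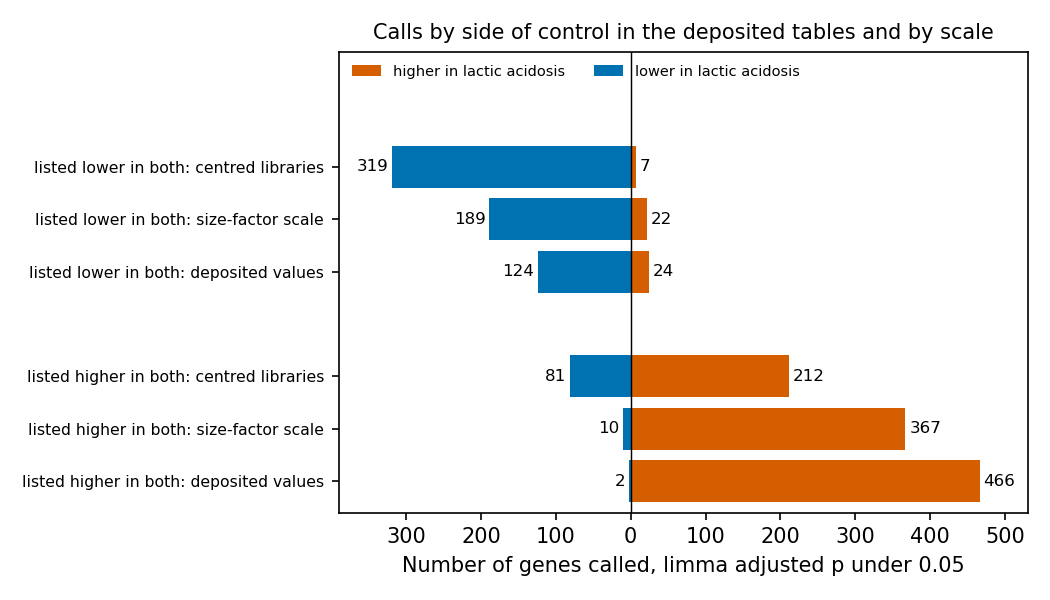
Bars count genes called higher (orange, to the right) and lower (blue, to the left) in lactic acidosis than in acidosis, for the 806 genes listed higher and the 478 listed lower than control in both deposited tables. Each set is shown on the deposited values, on the authors' size-factor scale and with libraries centred on their median, and the 466 against 2 of the first set becomes 212 against 81 after centring.

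Markers of the cell type could be checked only in part, because the tables hold listed genes alone. The bile duct keratin KRT19, given in the lactic acidosis table, ran from 2596 to 4419 over its 3 control and 3 lactic acidosis libraries. Of the other biliary markers in that table, SOX9, a transcription factor of bile duct cells, ran from 6.41 to 17.3 in control and from 32.9 to 35.7 in lactic acidosis, and the mucin MUC1 from 1.41 to 2.30 and from 0.33 to 0.35. CDH1, the epithelial cadherin, was the only member among 10 biliary markers. Markers of fibroblasts, muscle, immune cells, endothelium, hepatocytes and red cells had no gene among the 1304. In the lactic acidosis table the immune marker CD68 ran from 27.7 to 33.05 in control and from 43.2 to 50.1 in lactic acidosis. The second lactic acidosis library stood apart in the muscle markers of that table other than MB. It had the skeletal muscle transcript ACTA1 at 19.7 and CKM at 4.97 against at most 0.56 and 0.47 in the other lactic acidosis libraries. ACTC1, MYH1 and MYH2 read 1.73, 1.20 and 1.48 in it, against at most 0.17, 0.05 and 0.07. MB read 1.50, 1.14 and 1.11 over the 3 lactic acidosis libraries and 2.84 to 4.59 in control. Without the second lactic acidosis library 402 genes were higher and 131 lower. Depth is unknown, since the values hold no counts.

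AKAP12 differed most. It encodes gravin, a scaffold that holds protein kinases A and C at the membrane, and lies at chr6:151239999-151358557 (GRCh38). Its 3 libraries read 46.9, 32.5 and 31.1 in acidosis, 454, 493 and 463 in lactic acidosis, 159, 139.7 and 207 in lactosis and 4.78, 16.4 and 22.4 in control. The 4 groups did not overlap, and acidosis stood far nearer to control than to lactic acidosis. The means of 36.8 ± 8.76 and 469.9 ± 20.6 (SD, n = 3 each) give a 12.8-fold difference and a log2 difference of 3.66 (95% interval 3.35 to 3.98, adjusted p = 6.72e-07, limma).

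The other genes with the largest gains over acidosis include enzymes of lipid and glycan metabolism. G0S2, an inhibitor of the triglyceride lipase ATGL, read 56.1, 63.5 and 65.5 in acidosis and 275, 221 and 253 in lactic acidosis, a log2 difference of 2.00 (1.77 to 2.22). MGLL, which splits monoglycerides, read 15.04, 14.2 and 14.3 against 41.1, 48.9 and 46.96, a difference of 1.58. Neither gene's groups overlapped, and both had lactosis values between those of the acid media, at 124, 139 and 128 for G0S2 and 27.4, 26.6 and 25.2 for MGLL. ST3GAL1, a sialyltransferase, and HS3ST1, a heparan sulfate sulfotransferase, were higher by 1.72 and 1.46. MYEOV, a gene named from myeloma and placed next to the cyclin D1 gene, was higher by 1.53.

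Genes of growth factor signalling were higher in lactic acidosis throughout the part of that list that could be compared. Of 32 listed genes for ERBB receptors, their ligands and MAP kinase feedback, 6 were members, and all 6 were higher on each of the 3 scales, where 38.7% of all genes were higher on the deposited one. All but ERRFI1 were listed higher than control in both media. Of the 806 such genes, 466 were higher on the deposited scale, 367 on the size-factor scale and 212 after centring. Their median difference was 1.15, which is 0.995 above that of all 1304 genes.

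Of the members, 2 are ligands. EREG, the epiregulin precursor, read 130.2, 117 and 111 in acidosis and 269, 332 and 247 in lactic acidosis, against 65.7, 63.1 and 46.8 in control. TGFA, transforming growth factor alpha, which binds the EGF receptor, read 44.4, 37.5 and 34.5 and 78.5, 91.6 and 76.8. In both genes every lactic acidosis library was above every acidosis library, with differences of 1.23 (0.97 to 1.49) and 1.07 (0.82 to 1.31).

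The 4 feedback genes encode proteins that damp the same cascade. DUSP4, a phosphatase that removes phosphate from ERK in the nucleus, read 80.2, 69.7 and 64.4 in acidosis and 242, 254 and 244 in lactic acidosis, a difference of 1.78 (1.58 to 1.98). Its lactosis libraries, at 96.3, 79.7 and 92.3, overlapped acidosis and not lactic acidosis. DUSP6, which acts on ERK in the cytoplasm, was higher by 0.68, and SPRY4, a Sprouty inhibitor of receptor signalling, by 0.97. ERRFI1, or MIG6, which binds and inhibits the EGF receptor, fell on opposite sides of control: 170.3, 144 and 132 in acidosis, 204, 289 and 246 in control and 373, 449 and 381 in lactic acidosis. Its difference of 1.43 has 3 acidosis libraries below and 3 lactic acidosis libraries above every control library.

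Transcription factors downstream of the cascade moved to different degrees. FOSL1, the AP-1 subunit FRA1, read 247, 245 and 241 in acidosis and 642, 726 and 705 in lactic acidosis, a 2.83-fold difference of means and 1.5 on the log2 scale (1.33 to 1.66, adjusted p = 1.82e-06, limma). Control ran from 56.5 to 144 and lactosis from 334 to 379, and no 2 of the 4 groups overlapped. Of the 5 members among 23 AP-1 and immediate early genes, 4 were higher (FOSL1, IER5, KLF4 and BATF3) and ATF3 was not called at -0.08. The share of all genes called higher was 38.7%, and 17.9% after centring. Only FOSL1 kept its call after centring, where ATF3 became lower at -0.31, and KLF4 and BATF3 lost theirs in a fit that included control libraries. BATF3 also lost its call with a pseudocount of 0.1 and without lactic acidosis replicate 1 or 3 or acidosis replicate 1 or 2. KLF4, a factor of epithelial differentiation, stayed below control in both media, at 37.2, 33.9 and 32.5 in acidosis and 40.99, 47.2 and 46.4 in lactic acidosis against 70.7, 85.5 and 60.8 in control. CCND1, cyclin D1, which lies outside these lists and was named after its values were seen, was higher by 1.07 (0.86 to 1.28).

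**Figure D3:**
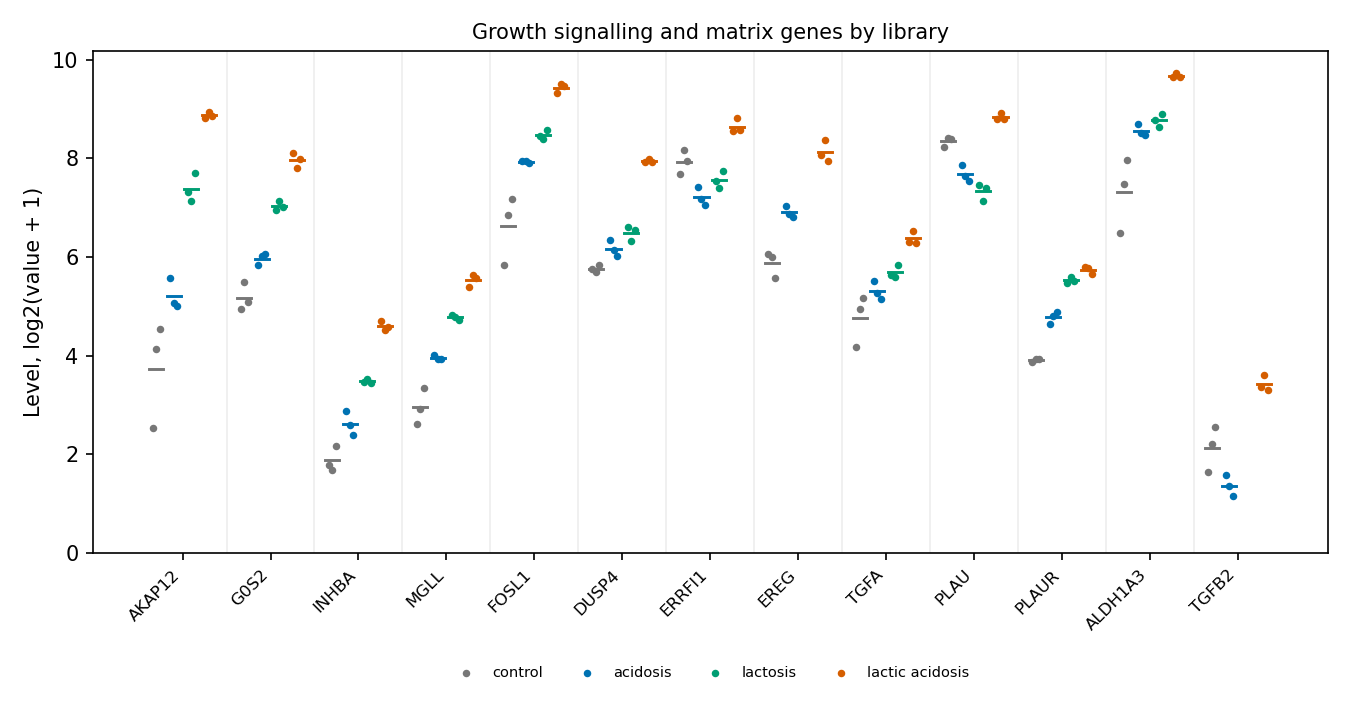
Points are single libraries of 13 genes of growth signalling, matrix and related functions on a log2(value + 1) axis, bars are group means, and colours mark control (grey), acidosis (blue), lactosis (green) and lactic acidosis (orange). In all 13 genes the 3 orange points lie above the 3 blue points, and ERRFI1, PLAU and TGFB2 have blue means below grey ones. EREG and TGFB2 have no lactosis value because the lactosis table does not list them.

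Activin and TGF beta ligands differed by about as much. INHBA, the subunit of activin A, read 6.30, 5.0 and 4.21 in acidosis, 9.98, 10.6 and 9.87 in lactosis and 25.03, 21.8 and 22.9 in lactic acidosis, a difference of 1.99 (1.72 to 2.26). TGFB2 read 2.0, 1.54 and 1.23 in acidosis, 2.13, 3.60 and 4.83 in control and 9.28, 11.1 and 8.89 in lactic acidosis. Acidosis lay below and lactic acidosis above all control libraries, with a difference of 2.06 (1.79 to 2.33). SMAD2, the intracellular mediator of both ligands, read 12.5, 10.9 and 9.66 and 11.4, 12.6 and 11.1 and was not called at 0.08 (-0.14 to 0.30). The list for this pathway also held TGFA, which despite its name signals through the EGF receptor. Of the 4 members of 30, 3 were higher on every scale. Over all genes, 38.7% were higher on the deposited scale, 31.0% on the size-factor scale and 17.9% after centring.

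Matrix and protease genes were higher in lactic acidosis. PLAU, the secreted protease urokinase, read 231, 199.6 and 186 in acidosis, 301, 342 and 334 in control and 444, 485 and 446 in lactic acidosis. Its receptor PLAUR read 24.1, 26.9 and 28.4, 13.6, 14.2 and 14.2 and 54.5, 53.6 and 49.7 in the same order. The protease stood below control in acidosis and above it in lactic acidosis, whereas the receptor stood above control in both media. Differences between the acid media were 1.16 for PLAU and 0.97 for PLAUR, and lactosis stood at 176, 139.8 and 169 for PLAU, below every acidosis library. VIM, the mesenchymal filament vimentin, was higher by 0.51, and lost that call after centring. All 4 members of this list of 49 genes were higher on the deposited and size-factor scales and 3 after centring, with a median 0.906 above that of all genes.

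Targets of YAP and TEAD, the transcriptional output of the Hippo pathway, were higher in 6 of 6 members of a list of 22, and in 5 after centring, where FJX1 lost its call. Over all genes, 38.7% were higher, and 17.9% after centring. The list's median of 0.698 is 0.543 above that of all genes. NT5E, the ectoenzyme CD73 that makes adenosine, read 89.7, 81.8 and 76.5 in acidosis and 147, 183 and 156 in lactic acidosis, a difference of 0.96 (0.73 to 1.18). PTPN14 and AMOTL2 encode proteins that hold YAP back. PTPN14 read 12.4, 8.38 and 7.72 against 15.9, 19.1 and 17.6 and AMOTL2 42.4, 36.8 and 34.03 against 51.05, 60.8 and 55.4, with no overlap in either. AMOTL2 stayed below its control values of 80.9, 96.1 and 72.7 in both media. AXL, a receptor kinase, was higher by 0.45 and lost its call in the fit that included control libraries.

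Genes of retinoid metabolism were mostly higher on the deposited scale, and the 1 lower call there was of a gene near 0. ALDH1A3, an enzyme that makes retinoic acid, read 414, 365 and 355 in acidosis and 807, 855 and 801 in lactic acidosis, against 88.3, 178 and 249.8 in control, a difference of 1.12 (0.93 to 1.30, adjusted p = 9.54e-06, limma). The 3 lactosis libraries, at 441, 396 and 477, overlapped acidosis. CRABP2, which carries retinoic acid to its receptor, and TGM2, a transglutaminase and known retinoic acid target, were higher by 0.55 and 0.53. CYP26A1, which degrades retinoic acid, read 0.22, 0.9 and 0.54 in acidosis and 0, 0.31 and 0.05 in lactic acidosis, with overlapping groups near 0. Its difference of -0.46 lost its call without lactic acidosis replicate 1 or 3 or acidosis replicate 2, with a pseudocount of 5 and in the fit with control libraries. In all, 5 of the 7 members of 34 listed genes were higher and 1 lower, 5 and 2 on the size-factor scale, and 3 and 2 after centring. Among all 1304 genes, 38.7% were higher and 10.0% lower, 31.0% and 15.6% on the size-factor scale, and 17.9% and 31.1% after centring. The 2 lower after centring are close to the share of all genes. The fit with control libraries left 2 higher and none lower, without TGM2, where 219 of all 1304 genes were higher and 91 lower.

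Cholesterol genes stood on the lower side. Of 31 listed enzymes, uptake genes and controllers, 12 were members, 6 of which were lower and none higher, where 10.0% of all genes were lower. On the size-factor scale 8 were lower and after centring 9, where 15.6% and 31.1% of all genes were. None was higher on any scale. The members named below were all listed lower than control in both media. Of the 478 such genes, 124 were lower on the deposited scale, 189 on the size-factor scale and 319 after centring. The 9 after centring are thus near the share of genes on that side of control. The median was -0.31, a distance of -0.466 from that of all genes, and 11 of the 12 stood below the median of all genes.

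The sterol sensor led. INSIG1, which retains the SREBP precursor in the endoplasmic reticulum and is itself a target of SREBP2, read 25.7, 26.4 and 25.8 in acidosis and 9.01, 10.4 and 9.30 in lactic acidosis, against 31.5, 36.1 and 39.5 in control and 24, 24.3 and 22.2 in lactosis. Lactic acidosis stood furthest from control, with a 2.72-fold lower mean than acidosis and a difference of -1.35 (-1.53 to -1.18, adjusted p = 2.38e-06, limma). Among the enzymes, MSMO1 (sterol C4-methyl oxidase) read 79.98, 81.7 and 80.5 against 44.7, 47.9 and 38.4, and FDFT1 (squalene synthase) 229, 226 and 224 against 154, 161 and 153. FDFT1 in lactosis, at 251, 245 and 260.2, was above acidosis and overlapped control. TM7SF2, a sterol reductase, was lower at -0.40.

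The uptake side held STARD4, a cytosolic sterol carrier, which read 21.8, 18.8 and 16.4 in acidosis and 11.7, 12.3 and 10.2 in lactic acidosis. Its groups did not overlap, with a difference of -0.68. The members that were not called ran from ACAT2 at -0.22 (-0.45 to 0.01) through MVK, CYP51A1 and LSS to SREBF2, the SREBP2 gene itself, at 0.12 and NPC1, which exports cholesterol from lysosomes, at 0.30. The fatty acid side was smaller: of 3 members, ACSS2, which makes acetyl-CoA from acetate, was lower at -0.29, and SCD (-0.16, -0.47 to 0.16) and FADS2 (-0.05, -0.33 to 0.22) were not called on the deposited scale. On the size-factor scale 2 were lower and after centring all 3, and ACSS2 lost its call in the fit with control libraries.

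Targets of ATF4, the factor that answers amino acid shortage and related stress, did not move as a block. All 8 members of 36 had been listed lower than control in both media, and between the media 2 were higher, 3 lower and 3 not called. Of the 478 genes so listed, 24 were higher and 124 lower. The promoters of CHAC1 and DDIT3, which were called in opposite directions, are shown to compare their sequence, as the 250 bases before the RefSeq start in GRCh38.p14, at chr15:40953221-40953470 on the plus strand for CHAC1 and chr12:57520515-57520764 on the minus strand for DDIT3 (the first of its 2 listed starts). Capitals mark a match, on either strand, to TGATGNAA, the core of the amino acid response element.
CHAC1: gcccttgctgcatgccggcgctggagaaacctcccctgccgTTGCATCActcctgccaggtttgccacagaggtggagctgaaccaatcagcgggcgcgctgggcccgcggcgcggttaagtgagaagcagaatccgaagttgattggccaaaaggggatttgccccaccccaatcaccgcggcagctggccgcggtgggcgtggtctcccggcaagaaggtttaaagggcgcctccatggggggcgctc
DDIT3: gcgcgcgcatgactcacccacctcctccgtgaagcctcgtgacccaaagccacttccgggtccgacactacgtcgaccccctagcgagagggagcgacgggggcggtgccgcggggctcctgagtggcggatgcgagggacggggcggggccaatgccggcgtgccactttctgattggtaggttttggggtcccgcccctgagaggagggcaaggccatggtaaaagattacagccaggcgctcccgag
The match in CHAC1 spans positions -209 to -202, on the other strand, and 3.14% of 35116 such windows in the RefSeq table hold a match. DDIT3 has none in this window, which says only that these letters do not occur there. Bases further upstream were not searched, so the 2 genes cannot be told apart by this element.

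CHAC1, which breaks down glutathione, read 51.6, 78.6 and 54.5 in control, 3.59, 4.29 and 4.05 in acidosis, 3.71, 2.99 and 3.81 in lactosis and 11.1, 15.6 and 11.5 in lactic acidosis. Acidosis and lactosis overlapped, lactic acidosis lay above both, and control lay above all 3. The lactic acidosis mean was 3.20-fold that of acidosis (difference 1.45, 1.18 to 1.73, adjusted p = 2.39e-05, limma). INHBE, the activin E subunit and also an ATF4 target, had the same order at lower values, 0.21, 0.1 and 0.36 in acidosis and 0.89, 0.97 and 1.42 in lactic acidosis against 11.2, 7.94 and 3.47 in control, a difference of 0.77.

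DDIT3, the proapoptotic factor CHOP, went the other way. It read 678, 481 and 203 in control, 34.95, 29.2 and 30.4 in acidosis and 15.1, 17.01 and 16.99 in lactic acidosis, with no overlap, a difference of -0.90 (-1.11 to -0.70). Lactosis, at 16.6, 12.9 and 12.5, overlapped lactic acidosis. DDIT4, an inhibitor of mTORC1, was lower at -0.48 and KLHL24, a ubiquitin ligase adaptor, at -1.29. SESN2, ATF3 and JDP2 were not called, at 0.17 (-0.09 to 0.44), -0.08 (-0.24 to 0.09) and -0.10 (-0.33 to 0.14). After centring, 2 were higher and 5 lower, with ATF3 and JDP2 added. Of the 478 genes listed lower than control in both media, 7 were higher and 319 lower after centring.

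The 3 members among 13 targets of MondoA and ChREBP, factors that sense glucose 6-phosphate, also split. The promoters of TXNIP and its relative ARRDC4 are shown because both are textbook MondoA targets and the media ordered them differently. They are the 250 bases before the RefSeq start in GRCh38.p14, at chr1:145996580-145996829 on the minus strand for TXNIP (the first of 2 listed starts) and chr15:97960453-97960702 on the plus strand for ARRDC4. Capitals mark, in TXNIP, a match to the paired pattern of a carbohydrate response element, CACGNG repeated after 5 bases, and, in ARRDC4, a match to the E-box CACGTG.
TXNIP: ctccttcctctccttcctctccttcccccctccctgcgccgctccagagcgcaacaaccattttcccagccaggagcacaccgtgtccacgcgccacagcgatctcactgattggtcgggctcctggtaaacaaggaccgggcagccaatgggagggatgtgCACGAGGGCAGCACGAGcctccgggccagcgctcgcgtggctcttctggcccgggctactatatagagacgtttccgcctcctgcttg
ARRDC4: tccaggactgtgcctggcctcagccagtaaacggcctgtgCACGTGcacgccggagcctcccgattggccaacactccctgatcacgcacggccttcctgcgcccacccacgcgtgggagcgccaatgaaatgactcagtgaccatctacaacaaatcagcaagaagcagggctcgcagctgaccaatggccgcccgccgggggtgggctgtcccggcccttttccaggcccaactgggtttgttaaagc
On either strand, the paired pattern occurs in 16 of the 35116 windows (0.0456%) and the E-box in 6.34% of them. The match in TXNIP spans -88 to -72 and that in ARRDC4 -210 to -205.

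TXNIP, which restrains glucose uptake, read 2.42, 3.76 and 3.97 in control, 21.6, 19.96 and 19.6 in acidosis and 14.7, 15.9 and 15.1 in lactic acidosis. It was raised in both media and less in lactic acidosis, with a difference of -0.40 (-0.56 to -0.23) and no overlap, and the fit with control libraries did not call it. ARRDC4 read 1.11, 1.12 and 0.91, 3.19, 2.90 and 2.43 and 4.29, 4.38 and 3.66 in the same order, higher in lactic acidosis by 0.41 (0.20 to 0.63), and lost that call after centring. The ranges of the 2 differences do not meet, but the difference between them was not tested. PFKFB2, which makes the glycolytic activator fructose 2,6-bisphosphate, read 5.14, 3.87 and 3.45 in acidosis, 4.58, 7.16 and 7.58 in control and 8.91, 9.60 and 9.66 in lactic acidosis, a difference of 1.02 (0.77 to 1.28), and was called higher on every scale. Its lactosis libraries, at 10.1, 8.65 and 11.97, overlapped lactic acidosis.

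CXCL10 had the largest fall. It encodes a chemokine that draws T cells and is induced by interferon and NF-kB, at chr4:76021117-76023497. Its 250 promoter bases, chr4:76023498-76023747 on the minus strand (GRCh38.p14), are shown with a match to the kappaB pattern, GGGA and TTCC with any 2 bases between, in capitals, at -177 to -168, a pattern found in 1.4% of the 35116 windows on either strand.
CXCL10: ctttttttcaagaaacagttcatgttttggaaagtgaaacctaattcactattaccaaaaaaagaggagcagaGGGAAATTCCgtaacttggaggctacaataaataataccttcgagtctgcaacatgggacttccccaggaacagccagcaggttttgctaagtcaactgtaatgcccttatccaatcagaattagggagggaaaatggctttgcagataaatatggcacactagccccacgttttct
It read 4.68, 10.5 and 11.1 in control, 14.1, 15.1 and 13.9 in acidosis and 3.03, 1.89 and 1.87 in lactic acidosis. Acidosis lay above and lactic acidosis below every control library, a 6.35-fold lower mean and a difference of -2.25 (-2.54 to -1.97, adjusted p = 2.38e-06, limma). It was the only member among 42 interferon-stimulated genes.

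Inflammatory genes otherwise moved apart. S100A9, a calcium-binding protein of inflamed epithelium and myeloid cells, read 23.8, 24.3 and 37.4 in control, 44.4, 38.5 and 36.4 in acidosis and 9.26, 10.3 and 7.88 in lactic acidosis, a difference of -2.01 (-2.25 to -1.76). Its acidosis libraries overlapped control and its lactosis libraries, at 12.7, 20.96 and 14.1, lay between lactic acidosis and control. IL1B, interleukin 1 beta, was higher by 0.57, at 65.1, 65.6 and 59.2 in acidosis and 92.8, 103 and 86.8 in lactic acidosis. PTGES, a prostaglandin E synthase, was lower at -0.41, and TNFSF15 was not called at -0.13 (-0.33 to 0.07) on the deposited scale, though called lower on the other scales. In counts, 1 of the 4 members of 45 was higher and 2 lower, and 1 and 3 on the other scales. Over all genes, 38.7% were higher and 10.0% lower, 31.0% and 15.6% on the size-factor scale, and 17.9% and 31.1% after centring. Named after their values were seen, the chemokine CX3CL1 (-0.91), the interleukin 1 receptor antagonist IL1RN (-0.51) and complement factor B, CFB (-0.79), were lower.

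**Figure D4:**
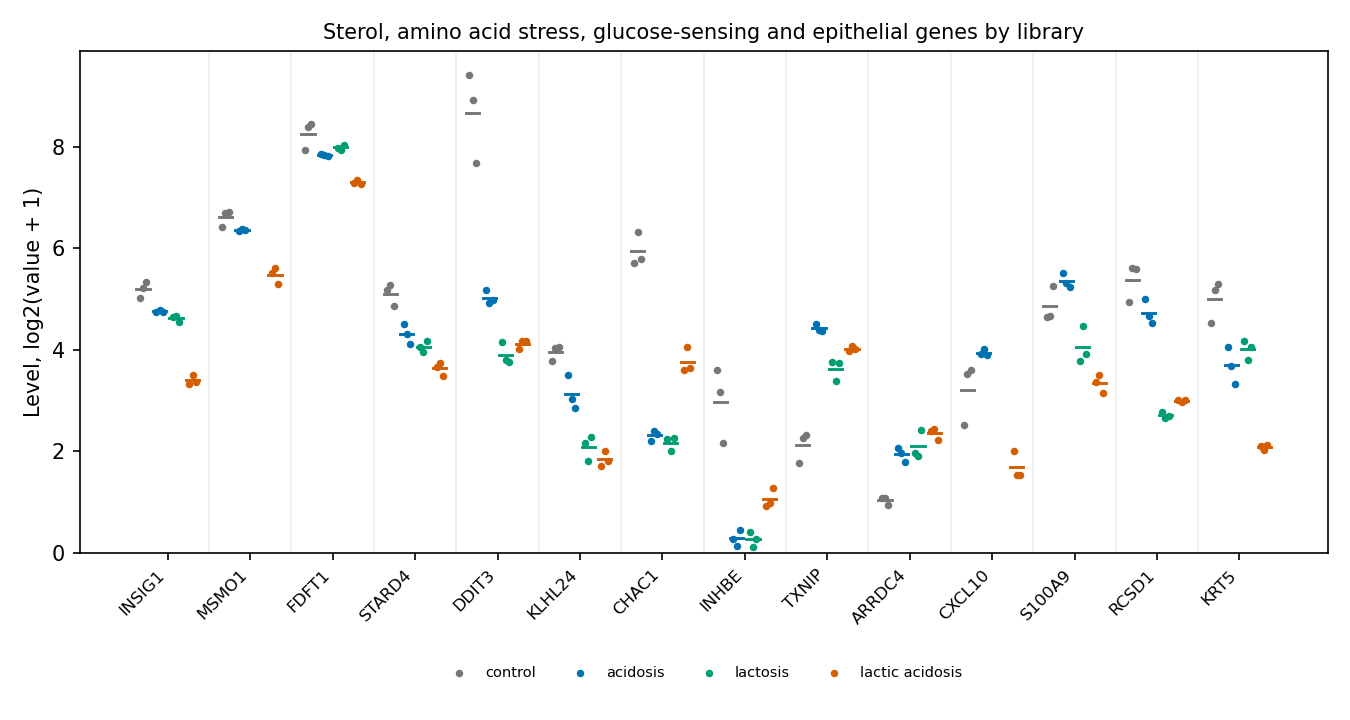
Points are single libraries of 14 sterol, stress, glucose-sensing, inflammatory and epithelial genes on a log2(value + 1) axis, bars are group means, and colours mark control (grey), acidosis (blue), lactosis (green) and lactic acidosis (orange). Orange lies below blue in INSIG1, MSMO1, FDFT1, STARD4, DDIT3, KLHL24, TXNIP, CXCL10, S100A9, RCSD1 and KRT5 and above it in CHAC1, INHBE and ARRDC4. MSMO1 and CXCL10 have no lactosis value.

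Among epithelial genes, a keratin was lower and most of the others compared were higher on the deposited scale. KRT5, a basal keratin, read 21.9, 35.02 and 38.1 in control, 15.6, 11.8 and 9.05 in acidosis and 3.30, 3.04 and 3.37 in lactic acidosis, a difference of -1.61 (-1.95 to -1.26). Lactosis, at 17, 12.98 and 15.6, overlapped acidosis. GJA1, a connexin of gap junctions, was higher by 0.65. CDH1 read 78.7, 58.9 and 52.7 in acidosis, 68.5, 86.4 and 89.1 in control and 99.5, 118 and 107 in lactic acidosis, so the epithelial cadherin and vimentin were both higher in lactic acidosis (CDH1 by 0.78, 0.47 to 1.09). Of the 7 members of 41 listed junction and keratin genes, 5 were higher and 1 lower, and 3 and 2 after centring. Over all 1304 genes, 38.7% were higher and 10.0% lower, and 17.9% and 31.1% after centring. The 2 lower after centring are close to that share. Without lactic acidosis replicate 2 or acidosis replicate 2, and in the fit with control libraries, 3 were higher.

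The other genes with the largest falls have varied roles. RCSD1, which binds the actin capping protein, read 30.8, 24.3 and 22.02 in acidosis and 7.0, 6.83 and 7.07 in lactic acidosis, and 5.86, 5.33 and 5.49 in lactosis, the only one of the 12 largest falls with lactosis below lactic acidosis. CLU, the secreted chaperone clusterin, read 93.2, 96.2 and 89.3 against 37.9, 35.98 and 39.05, a difference of -1.28. CXXC5, a zinc finger protein that inhibits Wnt signalling, was lower at -1.38, EPHX1, the microsomal epoxide hydrolase, at -1.19, and RNF130, a ubiquitin ligase, at -1.12. PPFIBP2, a liprin, was lower at -1.07 and ORAI3, a calcium channel subunit, at -1.01. None of these had overlapping groups.

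A few genes with roles in growth control were lower, among them 3 named after their values were seen. PIK3IP1, an inhibitor of PI3 kinase, read 4.25, 4.04 and 4.30 in acidosis and 1.62, 1.0 and 1.23 in lactic acidosis. HBP1, a repressor of cell cycle genes, read 26.2, 19.4 and 19.7 and 9.38, 12.4 and 10.1, and CCNG2, a cyclin linked to arrest, 18.5, 15.99 and 14.8 and 10.5, 11.7 and 10.6. No groups overlapped, with differences of -1.20, -0.96 and -0.54. TP53INP1, the only one of 4 p53 target members called, was lower (-1.02), reading 3.05, 2.15 and 2.24 against 0.73, 0.57 and 0.84. FAS, SESN2 and RRM2B were not called, though RRM2B was lower on the other scales. Over all genes, 48.8% were called on the deposited scale.

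Heat shock chaperones showed small differences whose direction depended on scaling. Of 15 members among 29, 9 were higher and 1 lower on the deposited values, 5 and 2 on the size-factor scale, and 1 and 4 after centring, and their median was 0.078 above that of all genes. The shares over all genes were 38.7% higher and 10.0% lower, 31.0% and 15.6%, and 17.9% and 31.1% in the same order. Without acidosis replicate 2 the higher count was 4, without acidosis replicate 3 or lactic acidosis replicate 2 it was 5, and in the fit with control libraries it was 1. DNAJB1, an HSP40 cochaperone, was the one higher on every scale, at 119, 112 and 109 in acidosis and 164, 168 and 164 in lactic acidosis (0.54, 0.38 to 0.70). HSPE1, the mitochondrial HSP10, read 494, 582 and 578 and 413, 444 and 435 and was lower on every scale (-0.35), though not in the fit with control libraries. The inducible HSP70 genes HSPA1A and HSPA1B were not called on the deposited scale, at -0.05 (-0.21 to 0.11) and -0.12 (-0.30 to 0.05). HSPA1B was lower on the other scales, with each lactic acidosis library below each acidosis library, and HSPA1A was lower after centring. In each gene 70% of the 75-base windows also occur in another gene's transcripts, so their reads cannot be fully separated.

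DNA replication genes had been raised over control in both media and differed little between them. Of 15 members among 41, 5 were higher and none lower, 4 on the size-factor scale, and after centring 2 were higher and 1 lower. Over all genes, 38.7% were higher, 31.0% on the size-factor scale, and after centring 17.9% were higher and 31.1% lower. Without the first acidosis library 8 were higher, and in the fit that included control libraries none was. The median was 0.01 above that of all genes. MCM10, which activates the replication helicase, read 23.4, 19.5 and 19.8 in acidosis and 29.9, 33.7 and 30.3 in lactic acidosis (0.56, 0.36 to 0.77). ORC6 of the origin recognition complex and CCNE1, cyclin E1, were higher by 0.46 and 0.45. PCNA, the sliding clamp, read 399, 396 and 417 and 454, 459 and 431, each lactic acidosis library above each acidosis library, and was not called at 0.15 (-0.01 to 0.31).

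Ribosome and translation genes had medians slightly above that of all genes. Of all 1304 genes, 38.7% were higher on the deposited values, 31.0% on the size-factor scale and 17.9% after centring. The members named here were listed higher than control in both media, and 466, 367 and 212 of the 806 such genes were higher on these scales. Among 8 members of 46 ribosome biogenesis genes, 6 were higher and none lower, 4 on the size-factor scale and 3 after centring, with a median 0.152 above that of all genes. DKC1, the pseudouridine synthase dyskerin, read 222, 188 and 196 in acidosis and 311, 286 and 295 in lactic acidosis (0.56), and GRWD1, a ribosome assembly factor, 44.7, 42.7 and 40.9 and 65.2, 60.8 and 62.05 (0.54). Of 6 members among 39 tRNA synthetases and translation factors, 5 were higher, among them HARS (0.41) and EIF4E, the cap-binding protein (0.32). On the size-factor scale 5 were higher and 1 lower, and after centring 1 and 1. In the fit with control libraries 1 was higher, where 219 of all 1304 genes were. After centring and in that fit, 1 of 6 is close to the share of all genes. Leaving out lactic acidosis replicate 1 or 2 or acidosis replicate 2 left 3 higher, without EIF4E.

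**Figure D5:**
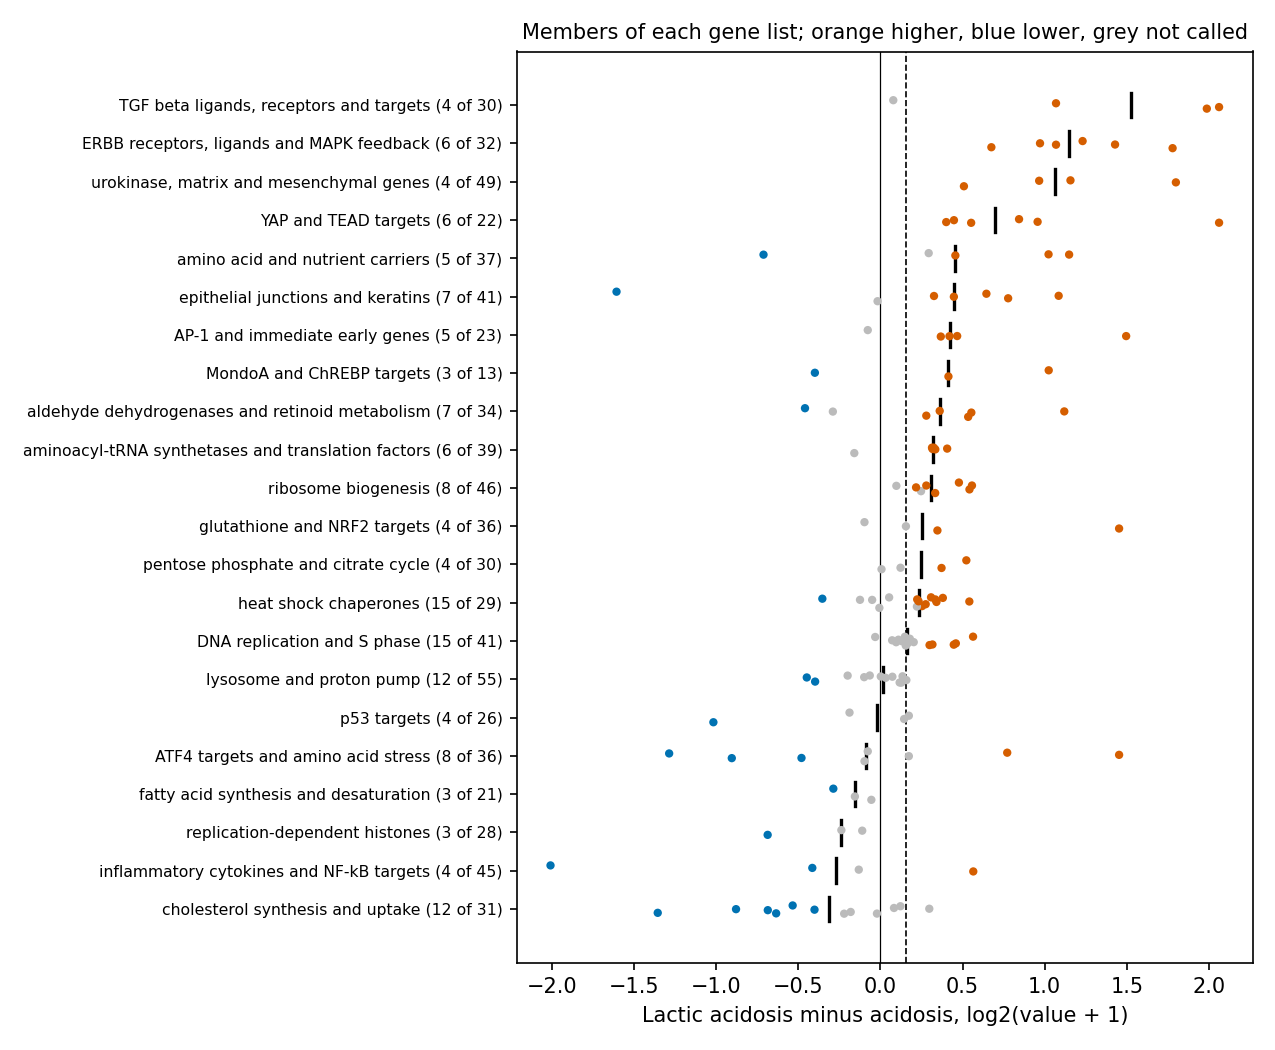
Each row is a gene list with at least 3 members, the points are its members' log2 differences, lactic acidosis minus acidosis, coloured orange for higher, blue for lower and grey for not called, and the short bar is the list's median. The dashed line is the median of all 1304 genes, 0.155, and the cholesterol list (-0.31) and the ERBB list (1.15) lie on opposite sides of it.

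Few genes of pH control or of lactate transport and use were among the shared genes. Of 55 lysosome and proton pump genes, 12 were members, 2 of them lower, the sialidase NEU1 (-0.45) and the protease CTSD (-0.40), and 10 not called. CTSD read 327, 304 and 296 in acidosis and 235, 231 and 236 in lactic acidosis against 496, 535 and 467 in control. After centring 6 were lower, and 11 of the 12 stood below the median of all genes. Over all genes, 10.0% were lower on the deposited scale and 31.1% after centring. Of the 478 genes listed lower than control in both media, NEU1 and CTSD among them, 124 were lower on the deposited scale and 319 after centring. Among 34 genes of pH control, ASIC1, an acid-sensing ion channel, was higher by 0.31, which was lost after centring, without lactic acidosis replicate 3 and in the fit with control libraries, and the carbonic anhydrase CA5B was not called at 0.07 (-0.24 to 0.37). Of 30 genes of lactate transport and use, only PDP1, a phosphatase that activates pyruvate dehydrogenase, was a member, at 55.7, 44.5 and 40.7 in acidosis and 40.2, 44.7 and 38.5 in lactic acidosis (-0.18, -0.44 to 0.08), not called on the deposited scale and lower on the other scales. No target of hypoxia-inducible factor and no endoplasmic reticulum chaperone on the lists was a member.

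Several carriers were listed on opposite sides of control in the authors' deposited tables. SLC30A1, which exports zinc, read 10.2, 10.9 and 9.48 in acidosis, 15.1, 16.6 and 14.1 in control and 22.4, 24.9 and 24.04 in lactic acidosis, a difference of 1.15. SLC20A2, a phosphate carrier, was higher by 1.02, with acidosis at 27.6, 24.8 and 22.1 and lactic acidosis at 50.7, 52.7 and 50.6. Its control libraries, at 25.3, 36.7 and 35.7, overlapped acidosis. SLC27A2, a fatty acid importer and very long chain acyl-CoA synthetase, was lower (-0.71), reading 23.1, 22.8 and 24.6 against 14.3, 14.7 and 12.8. Its control libraries, at 13.85, 17.9 and 20.5, overlapped lactic acidosis. Of the 5 carrier members of 37, 3 were higher and 1 lower on every scale. The shares over all genes ran from 17.9% to 38.7% higher and from 10.0% to 31.1% lower across the scales. RPIA of the pentose phosphate pathway was higher by 0.37, a call lost after centring and in the fit with control libraries. IDH3A and PGD were not called on the deposited scale, though PGD was lower after centring. PPARGC1A, the coactivator of mitochondrial genes, read 0.74, 0.64 and 0.49 against 0.43, 0.53 and 0.34 (-0.18) below control values of 2.79, 4.55 and 3.03, and was called lower on the other scales only. Among redox genes, SRXN1, sulfiredoxin, was higher by 0.35, which was lost after centring and in the fit with control libraries. CHAC2 (0.16) and NFE2L2, the NRF2 gene (-0.10), were not called on the deposited scale, and NFE2L2 was lower on the other scales.

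Short lists gave single genes. AURKB, a mitotic kinase and the only member of 24 mitosis genes, was higher by 0.35. TAP2, which loads peptides for antigen presentation, was higher by 0.33, and NLRC5, an activator of MHC class I genes, was not called at -0.15 (-0.40 to 0.10) on the deposited scale and was lower on the other scales. AURKB and TAP2 lost these calls after centring and in the fit with control libraries, and TAP2 also without acidosis replicate 2. Of 21 ABC transporters, ABCB10 was higher (0.51) and ABCA12 lower (-0.35), and both lost their call in the fit with control libraries. ABCA12 also lost it without lactic acidosis replicate 1 or 3 or acidosis replicate 1 and with either other pseudocount. The histone genes were listed as a check on poly(A) selection, since most of their transcripts lack a tail. Of 28 listed, 3 were members, which is too few to judge that selection. HIST1H2BD was lower (-0.69), and HIST1H2BK and HIST2H2BE were not called on the deposited scale.

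Several genes far from control stood at nearly the same level in the 2 acid media. The next count took genes with a mean of at least 5 in either acid medium, without names of clones, unnamed loci or read-through transcripts. Of these, the authors' deposited tables give 60 as changed at least 2-fold the same way in both media. In 25 of the 60, the 95% interval of the difference lay within 0.5 of 0 on the log2 scale. Besides HSPA1A, HSPA1B, SESN2 and ATF3, they include RHOBTB1 (0.17, -0.16 to 0.50) and PPIAL4G (0.05, -0.34 to 0.44). TSC22D3, the glucocorticoid-induced leucine zipper GILZ, read 99.9, 125 and 78.9 in control, 32.3, 35.3 and 33.8 in acidosis and 28.3, 31.3 and 26.6 in lactic acidosis. HSPA2, an HSP70 relative, read 2.32, 3.46 and 5.42, 13.6, 13.3 and 13.3 and 16.4, 17.5 and 17.8 in that order. Lactosis also stood apart from control, at 26.2, 29.3 and 27.2 for TSC22D3 and 14.6, 12.97 and 13.5 for HSPA2, and all 3 lactosis libraries of HSPA1A, at 543, 485 and 521, were above those of both acid media. In TSC22D3 and HSPA2 the acid media differed far less from each other than from control, and still passed the test between them (-0.23 and 0.34). HSPA2 lost its call after centring and in the fit with control libraries. TSC22D3 lost its call without lactic acidosis replicate 1 or 3, without acidosis replicate 2 or 3, with a pseudocount of 0.1, with the replicate block and in the fit with control libraries.

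Setting the lactosis libraries beside the comparison shows where lactate at neutral pH stood. Of the 12 largest gains, 11 have lactosis values, and the lactosis mean lay between acidosis and lactic acidosis in 10 of them, CHAC1 being the exception. Of the 12 largest falls, 11 have lactosis values, and the mean lay between in 8. In 21 of these 22 genes the lactic acidosis mean was further out than the lactosis mean in the direction of the difference. AKAP12, G0S2, INHBA, MGLL, MYEOV, FOSL1 and HS3ST1 had the order control, acidosis, lactosis, lactic acidosis with no overlap between neighbours. These 24 genes were chosen for their difference between the acid media, so their places are a description.

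Several named genes share sequence with others, and the counting rule for such reads is not given in the sources used here. Of the 75-base windows sampled along each gene's transcript, another gene's transcripts hold 47.5% for ORAI3, 82.5% for SRXN1, 32.5% for ALDH1A3, 27.5% for TGFB2, 25% for DDIT3, 17.5% for PLAU, 42.5% for DDIT4, 40% for HSPE1, 60% for CTSD, 37.5% for DUSP6 and 75% for CFB. The library kit named in the labels does not mark strand, so reads from a gene and an overlapping or antisense partner cannot be told apart. AKAP12, FOSL1, CXCL10, S100A9, INSIG1, CHAC1 and TXNIP had no such window.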

How the data were processed

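The 12 KKU-213A libraries comprise 3 replicates of each of control, acidosis, lactosis and lactic acidosis culture. Per the labels' protocols, poly(A) RNA was sequenced as single-end reads of 75 nt. Reads were aligned with STAR to hg38 per the submitters' processing notes, and the counter and annotation are not given in the sources used here. The column names of the deposited tables are those of EBSeq output. Each library's deposited value is a signal corrected for gene length and library size, and the deposited group means are a signal of counts over size factors. The authors' deposited fold is a ratio with control on top, and was used only for its side of control and for the 2-fold rule. Values of lactic acidosis and acidosis stand in separate tables, whose 3 shared control libraries hold identical values (largest difference 0), so the tables were joined without rescaling. No depth can be given, which leaves the replicate spread as the only measure of precision.

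Tests used limma (version 3.58.1, under R 4.3.3). The model had no trend and no filter and took log2(value + 1) of the 3 lactic acidosis and 3 acidosis libraries, followed by Benjamini-Hochberg adjustment over 1304 genes and a threshold of 0.05. It was tested on simulated data. Alternatives were pseudocounts of 0.1 and 5, a filter on mean value, other scalings, adding control libraries, a replicate block, trend with robust variance, thresholds of 0.01 and leaving out each library. The authors' size-factor scale was rebuilt by fitting 1 weight per library to the deposited group means.

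The members and the 39 gene lists were chosen with earlier results of these data known. Named genes are the 12 largest differences each way among called genes without overlap and with a group mean of at least 5, the 4 members of a list with the smallest p, up to 8 genes on opposite sides of control, up to 8 with close levels, and genes of interest set with the lists. Names outside that rule were chosen after their values were seen: CCND1, SPRY4, DUSP6, TM7SF2, ACAT2, MVK, LSS, CYP51A1, NPC1, SREBF2, AXL, FJX1, JDP2, DDIT4, HSPE1, PIK3IP1, HBP1, CCNG2, CX3CL1, IL1RN, CFB, SOX9, MUC1, CD68, ACTC1, MYH1, MYH2, MB and the genes of the closing observations. Some genes that the rule names are not reported here. Gene positions are from GENCODE (GRCh38), found for 1254 of the 1304 symbols, and promoter sequences from RefSeq (GRCh38.p14), found for 1021. Shared sequence was read from 40 windows per gene's transcript.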

Additional observations from a re-analysis of the deposited data

Results flagged for a closer look

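The authors' deposited tables place lactic acidosis and acidosis on opposite sides of the same 3 control libraries for 15 genes higher and 5 lower in lactic acidosis, and the 8 with the largest differences are given here. Those above control in lactic acidosis and below it in acidosis were TGFB2 (log2 difference, lactic acidosis minus acidosis, 2.06), ERRFI1 (1.43), PLAU (1.16) and SLC30A1 (1.15). The same held for MTRNR2L8 (1.4) and MTRNR2L2 (1.25), which are near-identical to the mitochondrial 16S ribosomal RNA, so their reads are uncertain. CXCL10 (-2.25) and S100A9 (-2.01) were below control in lactic acidosis and above it in acidosis. Each of the 8 passed limma between the media on all 3 scales. The opposite placing fixes the sign of these differences, and both placings rest on the same control libraries. MTRNR2L8 read 56.6, 41.3 and 34.6 in acidosis and 138, 110.3 and 101 in lactic acidosis, and MTRNR2L2 7.75, 7.92 and 8.32 and 22.8, 18.2 and 20.4, against control values of 57.1, 62.2 and 66 and 12.6, 15.2 and 11.8.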

How the results depend on the processing

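Of the 505 genes higher in lactic acidosis, 234 were called higher when libraries were centred on their median and 219 when the control libraries joined the fit. The 131 lower genes became 204 with the authors' library weights and 405 after centring. The cause was not tested, beyond the shift of every difference by -0.2366 that centring itself makes. No gene called on the deposited values was called in the other direction under any alternative. The alternatives with pseudocounts of 0.1 and 5 gave 473 and 548 higher and 129 and 119 lower, a mean value of at least 1 gave 508 and 123, and an adjusted p under 0.01 gave 352 and 97. Over the fits that left out each replicate in turn, the higher count ran from 368 without acidosis replicate 2 to 633 without acidosis replicate 1, and the lower count from 115 to 140. After centring, PGD was lower at -0.23 and SRSF11 at -0.22, both above 0 and not called on the deposited scale. Of 119 called genes that the naming rule or the text took up, 83 were called under every setting that tested them. The replicate numbers did not pair the samples (correlations of same-numbered deviations -0.162, 0.0573 and 0.202), not every library correlated best with its own number, and a fit with the replicate number as a block called 456 higher and 134 lower. The values carry no counts, so what depth limits could not be computed.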

Other observations

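Genes grouped by shared symbols after their values were seen show some further patterns, given here as values. Of the 8 genes for serine and arginine rich splicing factors among the 1304, 6 were higher in lactic acidosis than in acidosis and none lower, 5 higher on the authors' size-factor scale, and 4 higher and 1 lower after centring, where 38.7% of all genes were higher on the deposited scale. SRSF7 read 137, 147 and 141 in acidosis and 214, 203 and 206 in lactic acidosis (0.55), and SRSF3 262, 266 and 280.2 and 385, 370.0 and 361 (0.46). SRSF11 was not called on the deposited scale (0.01, -0.14 to 0.17) and was lower after centring. Of 30 zinc finger genes with ZNF symbols, 3 were higher and 4 lower, and 2 and 13 after centring. Over all genes, 38.7% were higher and 10.0% lower, and 17.9% and 31.1% after centring. None of 6 mitochondrial ribosomal protein genes was called on the deposited scale, where limma gave an unadjusted p under 0.05 in 0 of them. On the size-factor scale 1 was lower and after centring 3, where 15.6% and 31.1% of all genes were.

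Other single genes were picked because they were higher in lactic acidosis, so no group is described by them. The ephrin receptor EPHA2 read 121, 113 and 112 in acidosis and 194, 211 and 216 in lactic acidosis (0.84, 0.67 to 1.01). The ligand EFNB2 read 32.1, 26.1 and 23.3 and 63.7, 74.95 and 68.7 (1.32), and EFNB1 was higher by 0.63. Neither EPHA2 nor the ligands had overlapping groups. The cell surface protease ADAM8 read 14.9, 13.7 and 14.1 and 36.1, 33.6 and 37.9 (1.27). The prostaglandin E2 receptor PTGER4, which acts through cyclic AMP, was higher by 1.10. MAT2A, which makes the methyl donor S-adenosylmethionine, read 211, 173 and 165 and 317, 338 and 304 (0.81), and HMGA1, a chromatin protein, 1465, 1432 and 1381 and 2075, 2228 and 2215 (0.61). FGF5, a fibroblast growth factor, read 0.09, 0.52 and 0.75 in control, 1.91, 1.58 and 1.56 in acidosis, 3.13, 3.79 and 3.24 in lactic acidosis and 4.73, 5.59 and 5.66 in lactosis, with no overlap between any neighbours in that order. Listed on opposite sides of control, the hyaluronidase TMEM2 was higher by 1.04 and the kinase LIMK2, which stabilises actin, by 0.82. In both genes the acidosis libraries overlapped control.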
